A study of Mus musculus with 6 samples.

Results

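Glucose enters a cell through a transporter and is held there once a hexokinase has phosphorylated it. The 6 genes Slc2a1, Slc2a3, Slc2a4, Hk1, Hk2 and Gpi1 cover this entry and the isomerase step that follows, and were followed here in the ventricles of mouse embryos at stage E12.5 with and without Vhl in the heart. They were taken by symbol from the deposited expression table, and all 6 were among its 13843 genes. Values are whole reads per gene divided by a factor of the library, which makes libraries comparable. Each library came from the ventricles of a single embryo of C57BL/6 background, without atria and valve region, and knockouts and controls were matched by somite number. The 3 controls were Vhl(flox/flox) with wild-type Nkx2.5 alleles, Nkx2.5(+/+). The 3 embryos labelled knockout were Vhl(flox/flox) with 1 Nkx2.5 allele that carries Cre, Nkx2.5(Cre/+). Both groups thus shared the floxed Vhl alleles, and the groups as labelled differed by Cre and by the loss of an Nkx2.5 allele along with the loss of Vhl. Cre made from Nkx2.5 acts in heart progenitors and their descendants, so other cells of the ventricle can keep Vhl. The title of the series places the comparison in heart metabolism and maturation.

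As background, the Slc2a genes encode the GLUT family, which lets glucose pass the membrane down its gradient. Slc2a1 encodes GLUT1, the transporter of basal uptake and the main form of the fetal heart, Slc2a3 encodes GLUT3, a form with high affinity known best from neurons, and Slc2a4 encodes GLUT4, which insulin and contraction bring to the surface of adult muscle and fat cells. Hk1 and Hk2 encode the hexokinases of most tissues and of insulin-sensitive muscle, respectively, both of which can dock on mitochondria, and Gpi1 encodes the isomerase that turns glucose 6-phosphate into fructose 6-phosphate. When VHL is lost, hypoxia-inducible factors (HIF) are not degraded, and Slc2a1, Slc2a3 and Hk2 are among their textbook targets.

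The libraries held 9067805 to 12592902 reads. Vhl measured 33.7, 36.3 and 38.6 in controls 1 to 3. Knockouts 1 and 2 had 11.1 and 10.3, and 34.5 was the value of the library labelled knockout 3, within the range of the controls. That library goes against its label, so knockouts 1 and 2 were compared with the 3 controls, and the library labelled knockout 3 is shown apart. The fold change of each member is also given with all 6 libraries. Leaving that library out rests on its Vhl value. The 6 cardiomyocyte markers summed to 23386 to 28540 in the controls and to 25323 and 23767 in knockouts 1 and 2. The 8 erythroid markers summed to 5533 to 12563 in controls and to 6047 and 13939 in knockouts 1 and 2, with 0 of 8 past the test. The 4 megakaryocyte and platelet markers summed to 18.6 to 106 in controls and to 16.8 and 60.0 in knockouts 1 and 2, also with 0 past the test. Sums above every control in both knockouts were those of epicardial markers (223 to 301 in controls, 395 and 366) and endothelial markers (1049 to 1142, 1213 and 1194). So was that of genes listed as atrial (2710 to 3433, 5094 and 3993). Of the measured genes 1 of 4 (Wt1), 0 of 5 and 1 of 3 (Myl7) passed, in that order. The atrial sum was mostly Nppa, which did not pass (2712, 2095 and 1927 in controls, 3748 and 2841 in knockouts 1 and 2). Bmp10 of that list was at 78.0, 42.0 and 46.8 in controls and at 71.0 and 42.3. The libraries were made without atria, and whether these genes mark atrial cells here was not tested. The part of these cell types in the results was not tested. In whole ventricles, a change in the number of cells of a type and a change in RNA per cell cannot be told apart.

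The promoters of 4 of the 6 members were found in the RefSeq table of GRCm38.p6, and entries for Slc2a3 and Slc2a4 were not found. They are shown because the members that rose and the member that did not pass the test can be compared letter by letter for the core of the HIF site. Each line gives the 250 bases before the start that RefSeq gives, 5′ to 3′ on the strand of the gene, with the letters ACGTG or GCGTG on either strand in capitals. Capitals on the other strand read CACGT or CACGC. The RefSeq start of Slc2a1 lies 34 bases inside the GENCODE M21 gene whose coordinates are given below, so the end of that line is within the gene model.
Slc2a1, chr4:119108495-119108744, plus strand: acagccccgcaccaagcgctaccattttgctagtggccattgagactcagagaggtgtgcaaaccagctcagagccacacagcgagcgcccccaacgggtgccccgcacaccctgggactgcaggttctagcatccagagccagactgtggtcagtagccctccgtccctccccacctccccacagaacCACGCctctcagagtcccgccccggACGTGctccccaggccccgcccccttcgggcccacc
Hk2, chr6:82774455-82774704, minus strand: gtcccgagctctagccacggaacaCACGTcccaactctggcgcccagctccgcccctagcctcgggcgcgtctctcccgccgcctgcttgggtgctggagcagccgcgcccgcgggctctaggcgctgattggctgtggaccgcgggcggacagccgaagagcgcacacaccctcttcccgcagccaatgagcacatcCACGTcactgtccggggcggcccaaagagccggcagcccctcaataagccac
Gpi1, chr7:34230337-34230586, minus strand: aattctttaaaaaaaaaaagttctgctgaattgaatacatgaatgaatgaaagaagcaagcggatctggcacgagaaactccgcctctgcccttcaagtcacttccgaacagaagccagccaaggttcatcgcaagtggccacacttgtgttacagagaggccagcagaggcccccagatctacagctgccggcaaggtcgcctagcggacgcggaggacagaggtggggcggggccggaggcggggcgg
Hk1, inner start, chr10:62340422-62340671, minus strand: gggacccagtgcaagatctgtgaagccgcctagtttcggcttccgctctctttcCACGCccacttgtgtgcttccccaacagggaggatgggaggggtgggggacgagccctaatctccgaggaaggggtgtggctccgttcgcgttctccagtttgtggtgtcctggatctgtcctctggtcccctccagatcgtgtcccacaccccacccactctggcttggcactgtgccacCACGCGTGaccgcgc
In the whole window, which adds 50 bases after the RefSeq start, the letters occurred 2 times in Slc2a1 and 2 times in Hk2. They occurred 0 times in Gpi1, 0 times at the outer start of Hk1 and 5 times at its inner start, where 2 of the matches overlap each other. None of the matches lay within the letters CACGTG. In Slc2a1 the matches began 61 and 36 bases before the RefSeq start, and in Hk2 226 and 52 bases before it. Of all 32851 promoters listed, 43.8% held at least 1 match and 20.6% at least 2, and of the 13329 promoters of genes with an expression value, 61.2% and 33.0% did. G and C made up 65.3% of the window of Slc2a1, 67.3% in Hk2 and 63.3% at the inner start of Hk1, above the median of 60.7% over promoters of genes with an expression value, and 57.3% in Gpi1 and 51.3% at the outer start of Hk1, below it. Hk1, with the letters at its inner start alone, did not pass the test below, and Gpi1, without them in its window, did. Sequence outside these windows was not searched. Which start of Hk1 was in use, and whether HIF binds any of these sequences, was not tested.

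In control ventricles the 6 genes spanned a wide range, and the transporter and hexokinase of basal use prevailed. To compare genes, each value was divided by the length in kb of the longest principal coding transcript of GENCODE M21. Gpi1 was highest, with a level per kb of 283 ± 11.3 (SD, n = 3 here and below), above Hk1 at 99.7 ± 10.4 and Slc2a1 at 89.3 ± 5.26. Hk2 followed at 16.9 ± 2.71, Slc2a4 at 13.0 ± 1.72 and Slc2a3 at 10.9 ± 2.17. Hk1 exceeded Slc2a1 in 3 of 3 controls, but their ranges overlapped, as did those of Hk2 and Slc2a4 and those of Slc2a4 and Slc2a3. Gpi1 stood apart from Hk1 by 2.83 times and Slc2a1 from Hk2 by 5.27 times, with no overlap. This order depended on the length, as alternatives chosen after seeing the data showed. By merged exon length Slc2a1 (83.1 per kb) stood above Hk1 (45.02). By median coding transcript length Slc2a3 (85.01) stood above Slc2a4 (41.7) and Hk2 (33.4). That median was 509.5 bases for Slc2a3, 787 for Slc2a4 and 2792 for Hk2. The principal transcripts have 3959, 2524 and 5513 bases in that order, so short annotated transcripts weigh on the median rule. By each of the 3 lengths Gpi1 was highest, Slc2a1 was the highest transporter and Hk1 was above Hk2. Among all genes with a length, the control level per kb of Gpi1 lay at the 98.3 percentile, those of Hk1 and Slc2a1 at 95.5 and 94.9, and those of Hk2, Slc2a4 and Slc2a3 at 69.3, 61.5 and 56.3.

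With Vhl lost, 4 of the 6 members rose, namely Slc2a1, Slc2a3, Hk2 and Gpi1, and 0 passed the test as lower (limma on log2(value + 1), adjusted p under 0.05 over all 13843 genes). Over all genes, 3.01% were called higher and 1.24% lower in this comparison of knockouts 1 and 2 with the 3 controls. Slc2a4 had lower values in both knockouts and did not pass, and Hk1 lay within the spread of the controls. With all 6 libraries as labelled, 0 of 6 members passed, and neither did any other gene, so 0% were called higher and 0% lower (limma, with 859 of the 13843 genes and 5 of the 6 members, all but Hk1, at an unadjusted p under 0.05). Within litters 1 and 2, with litter as a block, the same 4 members rose and Slc2a4 fell, beside 4.92% of all genes called higher and 3.21% lower. The p-values rest on the spread between these single embryos, together with a spread that limma shares across genes.

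**Figure D1:**
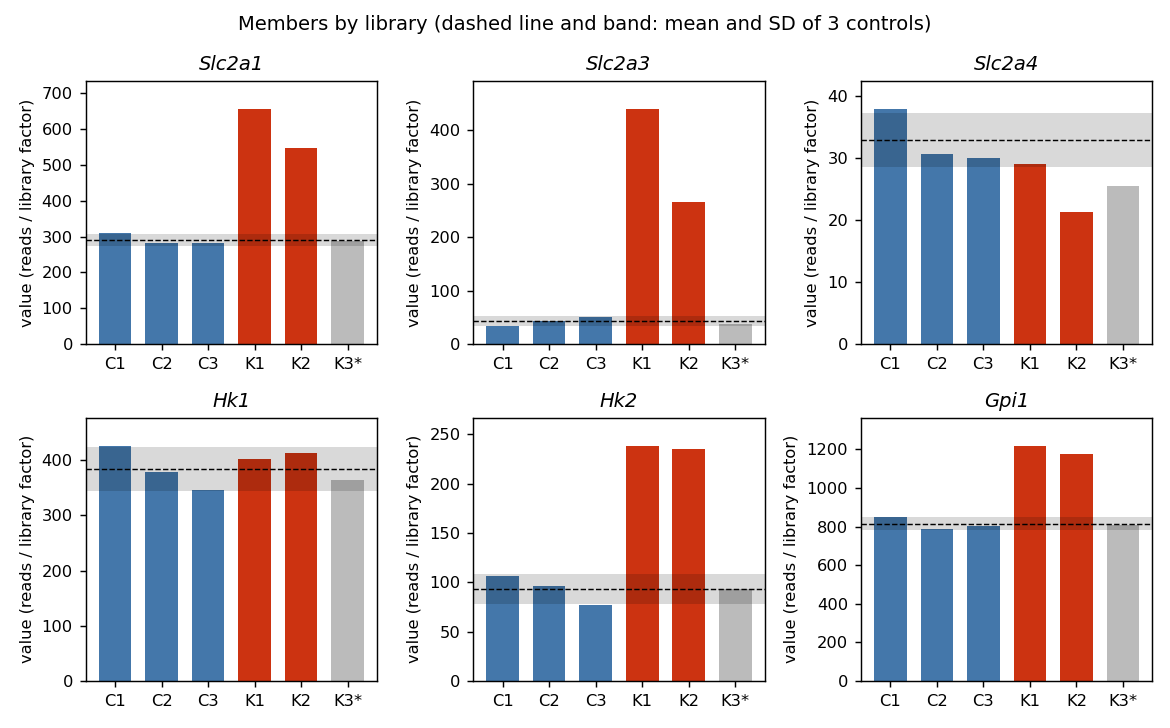
Value of each member in each library, as reads divided by a factor of the library (C1 to C3, controls; K1 and K2, knockouts 1 and 2; K3*, the library labelled knockout 3, whose Vhl value goes against its label), with the mean of the 3 controls as a dashed line and their SD as a band. Slc2a1, Slc2a3, Hk2 and Gpi1 stand higher in K1 and K2 than in every control, while K3* lies within the range of the controls for every member but Slc2a4.

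Slc2a1 (ENSMUSG00000028645, chromosome 4, 119108711 to 119137983 on GRCm38) measured 311, 281 and 282 in controls 1 to 3. In the 2 knockouts that lost Vhl the values were 655 and 546, and 287 was the value of the library labelled knockout 3. The 2 knockouts lay above every control and did not overlap them. The basal transporter thus was 2.06 times its control mean of 291 ± 17.1, a log2 fold change of 1.04 ± 0.10 (SE, adjusted p = 0.0012, limma). The rise was of like size in litter 1 (log2 difference between littermates 1.07) and in litter 2 (0.96). With all 6 libraries the log2 fold change was 0.68 ± 0.27 (adjusted p = 0.77).

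Slc2a3 (ENSMUSG00000003153, chromosome 6, 122727809 to 122801640) had the largest change of the 6. Values were 34.4, 44.1 and 51.5 in controls 1 to 3. The knockouts (1, then 2) had 439 and 265, and 38.4 was the value of the library labelled knockout 3. Both knockouts were far above the controls, and they differed from each other more than the controls did. Knockout 1 had 10.1 times and knockout 2 had 6.13 times the control mean of 43.3 ± 8.58, and the log2 fold change was 2.97 ± 0.22 (adjusted p = 0.00046). Of all genes, 0.0939% had a larger log2 fold change. Between littermates the log2 difference was 3.64 in litter 1 and 2.56 in litter 2. The knockout values rest on 5434 and 3029 reads, and those of the controls on 310 to 525. With all 6 libraries the log2 fold change was 1.93 ± 0.76 (adjusted p = 0.77). Slc2a3 lies 9.10 Mb from Vhl on chromosome 6, and Hk2 lies 30.8 Mb from it. Both groups carried the floxed Vhl alleles, and a part of this nearness to Vhl in the changes was not tested.

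Slc2a4 (ENSMUSG00000018566, chromosome 11, 69942539 to 69948188) went the other way in its values. Values were 37.8, 30.6 and 30.0 in controls 1 to 3. Knockouts 1 and 2 had 28.9 and 21.3, and 25.5 was the value of the library labelled knockout 3. All 3 libraries labelled knockout lay below all 3 controls, a pattern that 4.65% of all genes showed, with knockout 1 just under the lowest control. The log2 fold change was -0.38 ± 0.16 with 5 libraries and did not pass (adjusted p = 0.26, 95% interval -0.74 to -0.02), and it was -0.37 ± 0.14 with all 6 (adjusted p = 0.77). Between littermates, with litter as a block, Slc2a4 fell, with a log2 fold change of -0.44 ± 0.11 (adjusted p = 0.034), in a fit with 1 residual degree of freedom, which leans on the spread that limma shares across genes. Slc2a4 had 243 to 365 reads per library, so that counting alone gives an error of 5.23% to 6.42% of a value.

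Slc2a3 made up a larger part of the transporters in both knockouts than in any control. Of the summed level per kb of the 3 transporters, Slc2a1 made up 80.1%, 78.7% and 77.6% in controls 1 to 3, and 62.1% and 68.9% in knockouts 1 and 2. Slc2a3 went from 7.30%, 10.2% and 11.7% to 34.3% and 27.6%. Slc2a4 went from 12.6%, 11.1% and 10.7% to 3.55% and 3.47%. No share of the 2 knockouts overlapped that of the controls. In the library labelled knockout 3 the shares were 81.6%, 8.99% and 9.39%, in the same order, and the first and the last of these lay just outside the range of the controls. The summed level itself went from 113 ± 5.12 per kb in controls to 323 and 243 in knockouts 1 and 2, which is 2.50 times as a mean. In knockout 1 Slc2a3 (111 per kb) exceeded Hk1 (104), and in knockout 2 it lay below it (67.0 and 108), while in the controls, by this length, it was the lowest or next to lowest of the 6. An exact permutation test of 3 against 2 libraries, two-sided, gave p = 0.2 for each of 11 shares, sums and ratios compared, which is the smallest p it can give, and 0.2 after adjustment over the 11. The shares depend on the transcript length chosen, and the change of the Slc2a3 share ranged from 14.97 to 26.8 percentage points over the lengths tried. The 26.8 is by the median coding transcript, which is short for Slc2a3 (509.5 bases, beside 3959 for the principal transcript).

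**Figure D2:**
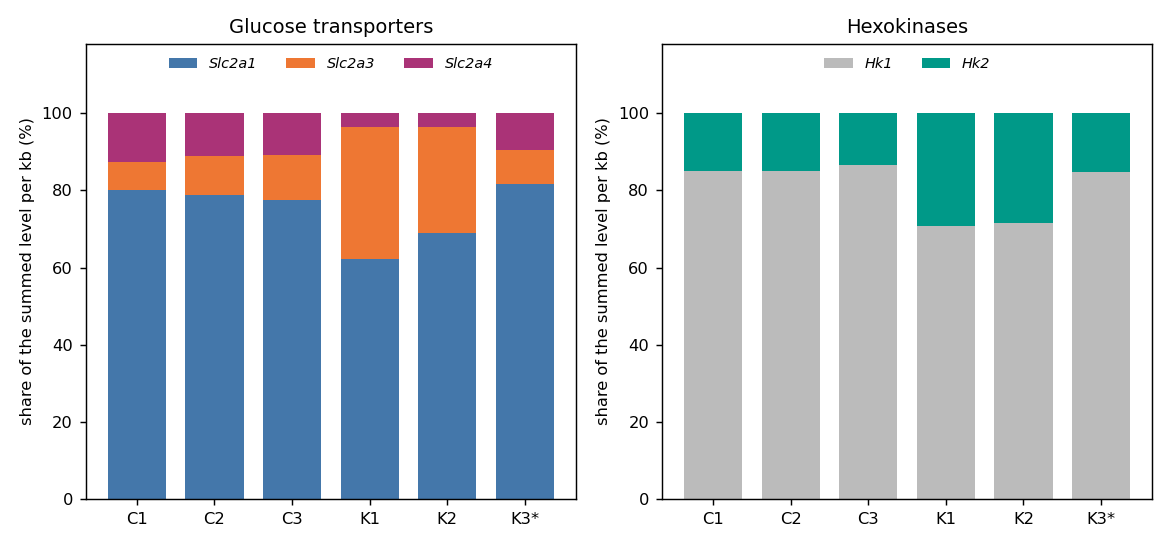
Share of each transporter (left) and each hexokinase (right) in the summed level per kb, in percent, for each library (C1 to C3, controls; K1 and K2, knockouts 1 and 2; K3*, the library labelled knockout 3). The Slc2a3 share is 34.3% and 27.6% in K1 and K2 against at most 11.7% in the controls, and the Hk2 share is 29.3% and 28.4% against at most 15.03%, by the length of the longest principal coding transcript, on which the sizes of these differences depend.

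Of the hexokinases, Hk2 rose and Hk1 did not pass. Hk2 (ENSMUSG00000000628, chromosome 6, 82725025 to 82774454) measured 107, 96.2 and 77.2 in controls 1 to 3. In the 2 knockouts that lost Vhl the values were 238 and 235, and 93.4 was the value of the library labelled knockout 3. The 2 knockouts nearly coincided, above all controls. The log2 fold change was 1.34 ± 0.13 (adjusted p = 0.0012), and 0.90 ± 0.33 with all 6 libraries (adjusted p = 0.77). Between littermates the log2 difference was 1.15 in litter 1 and 1.28 in litter 2.

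Hk1 (ENSMUSG00000037012, chromosome 10, 62268855 to 62379908), the form of most tissues, measured 426, 379.6 and 347 in controls 1 to 3. The knockouts (1, then 2) had 402 and 414, and 365 was the value of the library labelled knockout 3. All of these knockout values lay within the range of the controls. The log2 fold change was 0.09 ± 0.10 (adjusted p = 0.69), with a 95% interval from -0.13 to 0.31, which does not reach the change of Hk2. With all 6 libraries the log2 fold change of Hk1 was 0.04 ± 0.10 (adjusted p = 0.95). The log2 ratio of Hk2 to Hk1 within a library was -1.99, -1.97 and -2.15 in the controls, -0.75 and -0.82 where Vhl was lost, with -1.95 for the library labelled knockout 3. Per kb, Hk2 made up 14.9%, 15.03% and 13.5% of both hexokinases in controls 1 to 3 and 29.3% and 28.4% in knockouts 1 and 2. The mean rise of 14.3 percentage points was 5.96 by median coding transcript length (581 bases for Hk1, 2792 for Hk2) and 19.6 by merged exon length. The summed level of both went from 117 ± 13.0 per kb to 148 and 150.1, or 1.28 times as a mean, a smaller step than that of the transporters. The mix covers Hk1 and Hk2 alone. An antisense gene shares 157 exon bases with Hk1 and another shares 105 with Slc2a1. Neither had a row, and without strand their reads cannot be told apart from those of the members.

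Gpi1 (ENSMUSG00000036427, chromosome 7, 34201330 to 34230336) measured 851, 788 and 805 in controls 1 to 3. Knockouts 1 and 2 had 1218 and 1174, and 807 was the value of the library labelled knockout 3. The knockouts lay above all controls, by the smallest step among the 4 members that rose. The log2 fold change was 0.55 ± 0.08 (adjusted p = 0.011), or 1.47 times the control mean of 815 ± 32.7, and 0.36 ± 0.16 with all 6 libraries (adjusted p = 0.77). Its call depended on single embryos, since the adjusted p was 0.081 without control 2, 0.051 without control 3 and 0.068 without knockout 1, with log2 fold changes of 0.53, 0.54 and 0.53. The processed pseudogene Gm1840 is 98.7% identical to Gpi1 over 1046 bases and may share reads with it, but had values of only 6.61 to 18.04 over the 6 libraries. A lincRNA on the other strand, Gm26762, shares 741 exon bases with Gpi1 and had values of 0.755 to 2.29.

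**Figure D3:**
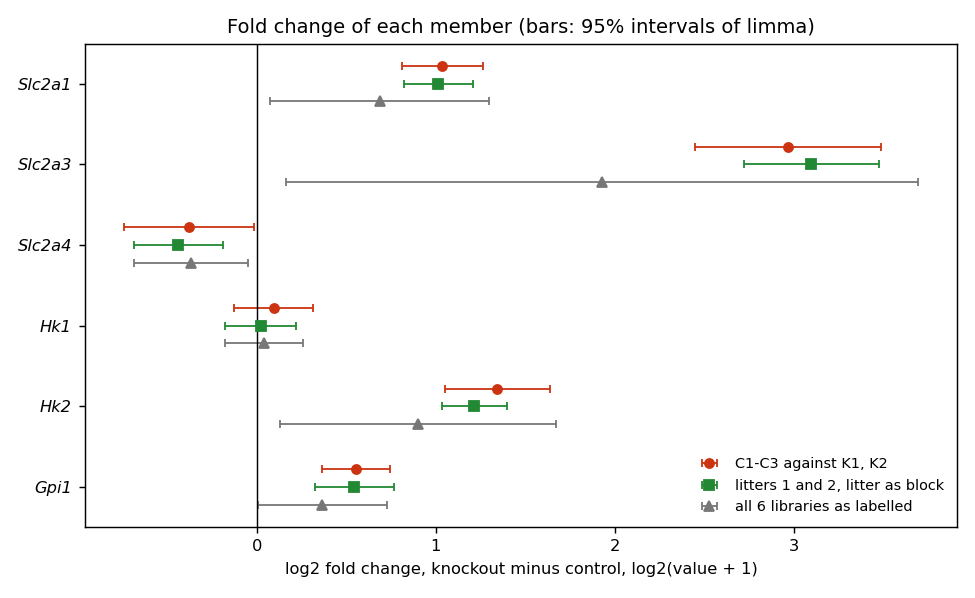
Log2 fold change of each member on the log2(value + 1) scale, knockout minus control, with 95% intervals of limma, for the 3 controls against knockouts 1 and 2 (circles), for litters 1 and 2 with litter as a block (squares) and for all 6 libraries as labelled (triangles). Slc2a3 has the largest value in each of the 3 comparisons (2.97, 3.10 with litter as a block and 1.93 with all 6 libraries), the interval of Hk1 spans 0 in all 3 comparisons, and the intervals widen for the 4 members that rose when the library labelled knockout 3 is kept.

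Genes that act beside the members were counted in lists. Of 82 genes in 6 lists written from general knowledge, 65 had a row, and 4 were called higher and 2 lower. These shares of the 65 are above the 3.01% and 1.24% of all genes. The lists were written with earlier results of these data known. Within the litters, in the fit with litter as a block and 1 residual degree of freedom, 5 were called higher and 8 lower. Over all genes that fit called smaller shares, 4.92% higher and 3.21% lower. In the list of other sugar transporters 0 of 7 measured genes passed in either direction (median log2 fold change 0.19, beside -0.01 over all genes), and 10 of 17 had no row, among them the hepatic transporter gene Slc2a2 and all 7 listed genes of sodium-coupled transporters. The gene of the 7 with the highest value, the sugar transporter gene Slc50a1, was at 14.2, 16.0 and 14.3 in controls and at 21.8 and 18.1 in knockouts 1 and 2 (adjusted p = 0.16). Per kb, Slc50a1 had a control level of 14.5, above the 10.9 of Slc2a3 and the 13.0 of Slc2a4. The other 6 measured genes, all of the Slc2a family, had control levels of 0.291 to 4.41, below that of Slc2a3.

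Among the other enzymes around glucose 6-phosphate, 2 of 13 measured genes rose and 0 fell (median 0.11). Pgm1, the phosphoglucomutase that links glucose 6-phosphate with glycogen, went from 240, 225 and 214 in controls to 473 and 422 with Vhl lost, the library labelled knockout 3 having 222 (log2 0.98 ± 0.08, adjusted p = 0.00073). Slc37a4, which carries glucose 6-phosphate into the endoplasmic reticulum, went from 18.4, 14.9 and 16.2 to 45.3 and 27.1, the library labelled knockout 3 having 17.3 (log2 1.05 ± 0.21, adjusted p = 0.033). Pgm1 passed in 5 of 5 fits that left out a library. Slc37a4 passed in 1 of 5, the fit without knockout 2 (log2 1.41), and its adjusted p reached 0.13 without knockout 1, where the log2 fold change was 0.69. Within the litters G6pdx, the entry enzyme of the pentose phosphate pathway, was also called higher and Gfpt2, of the hexosamine pathway, lower.

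Among genes for the traffic of transporters to and from the membrane, 1 passed. Arrdc4, an arrestin that binds GLUT1 and takes it into the cell, fell from 30.2, 35.7 and 41.5 in controls to 17.6 and 19.0 with Vhl lost, the library labelled knockout 3 having 37.0 (log2 -0.92 ± 0.14, adjusted p = 0.012). Its call was lost in 3 of 5 fits that left out a library, with an adjusted p of 0.058 without control 2, 0.095 without knockout 1 and 0.058 without knockout 2. It was the 1 gene of 7 in the list of GLUT1 traffic and turnover to pass (median -0.10). Its relative Txnip was at 277, 295 and 336 in controls and at 238 and 208 in knockouts 1 and 2 (adjusted p = 0.058), and passed as lower within the litters (0.031). In the list of GLUT4 vesicle traffic and insulin signalling 0 of 24 passed (median -0.01). Its gene with the highest value before division by length, the kinase gene Akt1, was at 365, 343 and 324 in controls and at 264 and 290 in knockouts 1 and 2 (adjusted p = 0.088). Within the litters 3 genes of that list were called lower, Akt1, the insulin receptor gene Insr and Tbc1d4, which holds GLUT4 vesicles back. Of the genes listed as regulators of Slc2a4 transcription 0 of 8 passed (median -0.21, beside -0.01 over all genes). The 8 include Slc2a4rg-ps, a pseudogene by its symbol (-0.06 ± 0.13). All 8 log2 fold changes were below 0, but some hardly so or within their error, such as Mef2c (-0.002 ± 0.11) and Nfix (-0.19 ± 0.40). Within the litters the coactivator gene Ppargc1a was called lower. Mef2a, a muscle transcription factor gene with the highest value of them before division by length, was at 249, 230 and 247 in controls and at 212 and 200.9 in knockouts 1 and 2 (adjusted p = 0.14).

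In the list around the docking of hexokinase on mitochondria, 2 of 6 genes rose and 1 fell (median -0.02). Vdac1, the channel of the outer membrane to which hexokinases bind, was at 568, 554 and 580 in controls and at 785 and 695 in knockouts 1 and 2 (log2 0.38 ± 0.08, adjusted p = 0.047), and its close relatives Vdac2 and Vdac3 did not pass. Tspo, of the outer membrane, rose (log2 0.54 ± 0.11, adjusted p = 0.040). Ppif, cyclophilin D of the matrix, fell from 125, 110.0 and 106 to 79.8 and 73.9 (log2 -0.56 ± 0.09, adjusted p = 0.015). Vdac1 and Tspo passed in 0 of 5 fits that left out a library, with adjusted p from 0.053 to 0.20 and from 0.079 to 0.23. Ppif passed in 2 of 5, and was lost without control 2 (0.061), without knockout 1 (0.066) and without knockout 2 (0.088). With all 6 libraries 0 genes of the 6 lists passed.

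**Figure D4:**
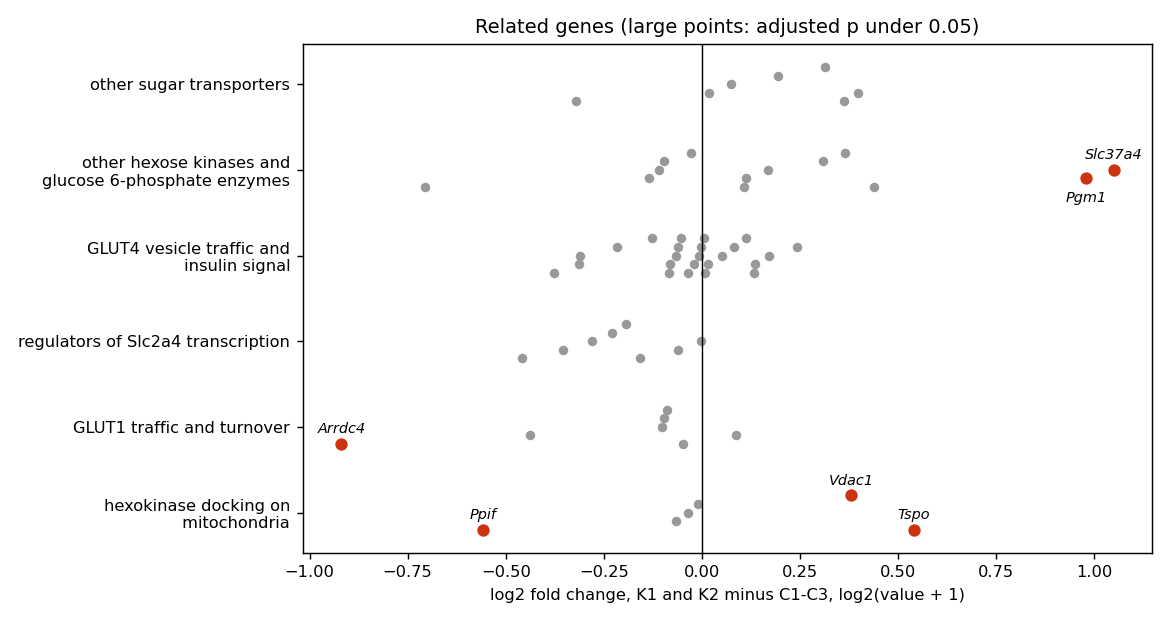
Log2 fold change of the 65 measured genes of the 6 lists, knockouts 1 and 2 minus the 3 controls on the log2(value + 1) scale, 1 point per gene, with genes past an adjusted p of 0.05 as large named points. Points are shifted up and down within a list only to keep them apart, and 6 of the 65 genes passed, from -0.92 for Arrdc4 to 1.05 for Slc37a4.

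Genes next to the members were counted too. For each member the nearest 3 tested protein-coding genes on each side were taken, 36 in all, at most 759 kb away. Of these 0 were called higher and 2 lower, beside 3.01% and 1.24% of all genes, shares at which few calls among 36 would be seen either way. The 2 lower neighbours were Ybx2, a gene 0.934 kb from Slc2a4 at low level (3.44, 3.69 and 3.88 in controls, 1.05 and 1.05 with Vhl lost, the library labelled knockout 3 having 5.13, log2 -1.19 ± 0.19, adjusted p = 0.017), and the collagen gene Col13a1, 290 kb from Hk1 (39.3, 40.4 and 38.4 in controls, 25.4 and 25.0 in knockouts 1 and 2, log2 -0.62 ± 0.09, adjusted p = 0.0075). Ybx2 passed in 1 of 5 fits that left out a library (adjusted p 0.038 to 0.094) and Col13a1 in 4 of 5 (0.024 to 0.056). Neither passed with all 6 libraries.

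The genes most alike each member over the 6 libraries were looked up among 6747 genes of above-median level, by Pearson's r on log2(value + 1). With 6 libraries, of which 2 stand apart, many genes reach a high r, so the values are a description. For Slc2a1 they were Stk25, Pgm1 and Npepps (r = 0.999, 0.998 and 0.997), and 29 genes had an r above 0.99. For Slc2a3 they were Sars, a transfer RNA synthetase gene, the collagen prolyl hydroxylase gene P4ha1 and the mitophagy receptor gene Bnip3l (0.998, 0.997 and 0.997), for Hk2 Dusp3, Utp15 and the vessel growth factor gene Vegfa (0.998, 0.996 and 0.996), and for Gpi1 Polr3g, Mthfd1l and Selenbp1 (0.998, 0.998 and 0.996). For Hk1 they were the proteoglycan gene Cspg4, Slc35e1 and the basement membrane gene Hspg2 (0.995, 0.988 and 0.986), which like Hk1 were highest in control 1 among the controls and did not pass between the groups. For Slc2a4 they were the cholesterol transport gene Npc1, the mitochondrial import gene Timm22 and Mccc1, of leucine breakdown (0.988, 0.987 and 0.982), none of which passed.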

How the data were processed

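RNA of 6 libraries from single embryonic ventricles was measured. Per the labels' protocols, 500 ng of total RNA went into each library and reads of 75 bp were made from single ends. The submitters' processing notes name CASAVA 1.8.2, cutadapt 1.3, RSEM 1.2.3 and GRCm38. Roles and order, the annotation, the gene filter and the scaling are not given in the sources used here. Normalized signal by the authors covers 13843 genes in the deposited table, with 100% of values whole multiples of a step per library within 0.01 reads. The recovered reads totalled 9067805 to 12592902 per library, and the steps matched effective library sizes of edgeR's TMM at a ratio of 1. No gene had values of 1 or more in fewer than 3 libraries. RSEM, where it did the counting, shares reads between similar loci, which can blur copies.

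From these values log2(value + 1) was tested with limma 3.58.1 with trend (R 4.3.3), Benjamini-Hochberg adjusted over all genes at 0.05, and a fold change on this scale understates low genes. GENCODE M21 named 13681 genes, and 162 had no symbol. Copies were searched with blastn 2.17.0 (at least 90% identity over 300 bases). The members and gene lists were chosen with earlier results of these data known. Named genes were the members, Vhl, list genes past the threshold (up to 4 a list) or else the 1 of highest mean value, neighbours past it and the 3 genes most alike each member. Genes named from the paired fit, Txnip, Slc2a2 and the relatives of Vdac1 were chosen after their values were seen. Alternatives were other pseudocounts, filters, scalings and lengths, edgeR 4.0.16 and DESeq2 1.42.0 on the recovered reads, all 6 libraries, each library left out, and litter as a block. The litter labels pair control 1 with knockout 1 and control 2 with knockout 2. The labels name 4 litters where the design text names 3. Deviations from the group means correlated over genes at 0.32 in litter 1 and 0.24 in litter 2. With 2 knockouts, their deviations are opposite by construction, so these 2 correlations are not independent. The code was tested on simulated data. Intervals and read numbers cover counting error only where they are given as such, and PCR copies are not separate molecules.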

Additional observations from a re-analysis of the deposited data

Results flagged for a closer look

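Hk1 differed in direction between the litters. In litter 1 its value was lower in the knockout than in the control littermate (log2 difference -0.08), and in litter 2 it was higher (0.12), so that the litters differed by 0.21 on the log2 scale. Each litter gives 1 pair, so the difference was not tested, and it is smaller than the range of 0.30 among the 3 controls.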

How the results depend on the processing

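All 14 alternatives kept the direction of each of the 6 members. The 4 calls held under the other pseudocounts, the filter at a mean of 5, equal column totals, limma without trend, edgeR, DESeq2 and the replicate block (litters 1 and 2, 4 libraries), with the exception of Gpi1 when a library was left out (log2 0.53 to 0.59). With all 6 libraries as labelled the number of members called higher was 0, at log2 fold changes of 0.68 for Slc2a1, 1.93 for Slc2a3, 0.90 for Hk2 and 0.36 for Gpi1, and 0 list genes were higher and 0 lower. The library labelled knockout 3, at control levels of these genes, is what that setting adds. With the replicate block 1 member was called lower, Slc2a4 at -0.44, and 8 list genes were lower, and the block changed no other call of a member. List genes called higher numbered 1 to 2 and lower 0 to 2 when a library was left out. Without trend the calls of Slc37a4, Vdac1, Tspo and Ppif were lost (adjusted p 0.10, 0.13, 0.076 and 0.076).

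Over all genes, 416 were called higher and 172 lower, against 681 and 444 with the replicate block, 550 and 276 by DESeq2, 235 and 82 without trend, and 146 to 297 and 44 to 90 when a library was left out, fewest without knockout 1. The changes of the shares kept their direction and moved in size. For Slc2a1, Slc2a3 and Slc2a4 they were -8.58, 14.97 and -6.39 percentage points by merged exon length, -21.4, 26.8 and -5.41 by median coding transcript length, and -7.94, 13.9 and -5.98 with all 6 libraries. For Hk2 they were 19.6, 5.96 and 9.80 in that order. Leaving out a library gave -16.7 to -9.90 for Slc2a1 and 17.9 to 24.6 for Slc2a3. The causes were not tested beyond what each setting changes by construction. With 1 knockout left, its spread is assumed to be that of the controls. Slc2a4, with at most 365 reads in a library, is the member that depth limits most.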

Other observations

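Knockouts 1 and 2 were not alike in every gene of glucose entry, and the genes named here were chosen after their values were seen. Slc2a3 was higher in knockout 1 than in knockout 2 by 0.72 on the log2 scale, where the 3 controls spanned 0.57. Slc2a1 differed in the same direction by 0.26, where the controls spanned 0.15. Hk2 and Gpi1 differed by 0.02 and 0.05, less than the controls did (0.46 and 0.11). Slc37a4 was at 45.3 in knockout 1 and at 27.1 in knockout 2. The 4 fibroblast and cushion markers summed to 1062 in knockout 1 and to 561 in knockout 2, beside 463 to 725 in controls, and the 8 erythroid markers to 6047 and 13939. With 1 embryo each, these differences were not tested.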
